A study of Leucoraja erinaceus with 4 samples.

Results

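A set of 187 assembled genes was abundant in the ampullary receptor cells and in the body skin of a little skate, and scarce in its ampullary canals and liver. The set was taken from a table of 186064 assembled genes by a rule on read counts. A member had at least 200 reads in both the receptor-cell and the skin library. The lower of its levels in these libraries, in reads per 1000000 reads of the library (CPM) plus 0.5, was at least 4 times the higher of its levels in canals and liver. Of the 5827 assembled genes that met the read minimum, 187 (3.21%) met the 4-fold condition too. With size factors from DESeq2 in place of library totals 118 met it. These factors lower every margin, so the 118 could only come from the 187. These levels chose the members, so their difference from canals and liver is a description and was not tested.

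The RNA came from 1 adult skate (Leucoraja erinaceus), with 1 poly(A)-selected, stranded library for each of 4 tissues. The tissues were ampullary receptor cells, body skin from a region without electroreceptors, the ampullary canals that lead to the receptor cells, and a piece of liver. The labels give no treatment, genotype or strain. Libraries held 11071249 to 12303108 reads. With 1 library per tissue there is no spread between replicates, and no p-value was computed.

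Ampullary organs of skates and sharks open at the skin surface as pores, from which a gel-filled canal runs to a sensory epithelium at its base. The receptor cells of that epithelium detect weak electric fields and pass the signal to nerve fibres, while the gel in the canal carries the field to them and the canal wall insulates it. Skate skin is an epidermis rich in mucus-secreting cells over a dermis that carries tooth-like scales, and the electroreceptors derive from thickenings of the embryonic ectoderm. The identifiers here are assembly numbers, and 0 of them were found among the 23250 genes of the RefSeq gene table. The members therefore have no names, roles or sequences here, and neither pathway genes nor the defining markers of the labelled tissues could be looked up. In dissected tissue, fewer cells of a type and less RNA per cell cannot be told apart.

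Of all reads, the 187 members took 2.19% in receptor cells and 5.02% in skin, against 0.16% in canals and 0.0847% in liver. For the median member, receptor cells held 657 reads (53.7 CPM) and skin 698 (59.6 CPM), against 53 in canals (4.31 CPM) and 18 in liver (1.63 CPM). Levels spanned 16.5 to 2090 CPM in receptor cells and 17.3 to 6735 CPM in skin. In canals they spanned 0 to 91.2 CPM, and in liver 0 to 81.4 CPM. Low did not mean absent, because 55 members still had 100 reads or more in canals and 18 in liver. Fewer than 10 reads were found for 23 members in canals, for 67 in liver and for 19 in both.

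**Figure D1:**
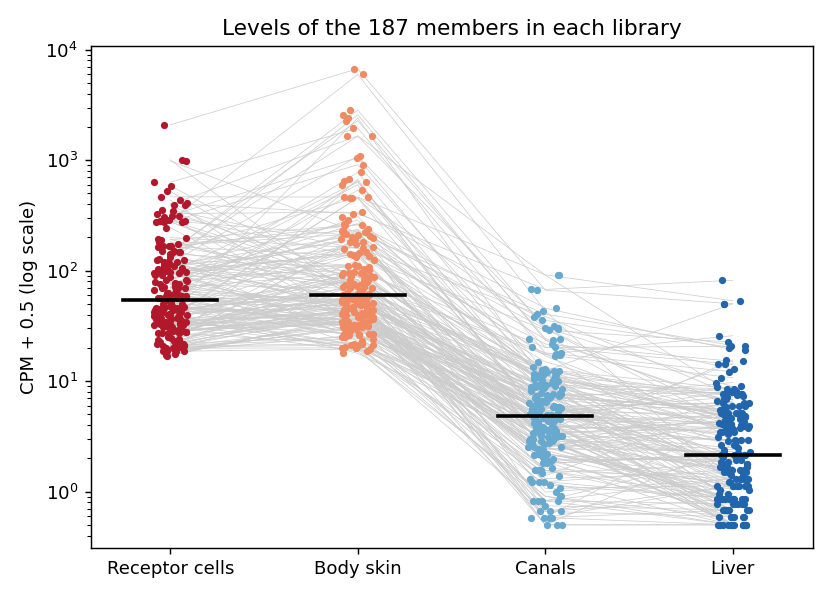
Level of each of the 187 members in the 4 libraries (vertical axis, CPM + 0.5 on a log scale), with a point per member, grey lines joining the values of a member and black bars at the medians. Without the added 0.5, the medians are 53.7 CPM in receptor cells and 59.6 in skin, above 4.31 in canals and 1.63 in liver. The skin points reach higher than the receptor-cell points.

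The margin over canals and liver varied widely among members. The lower of the receptor-cell and skin levels stood 4.01 to 144 times above the higher of the canal and liver levels, with a median of 7.28. A margin of 4 to 8 was found for 102 members, of 8 to 16 for 49, and of 16 or more for 36. On library totals canals set the limit more often than liver, being the higher of the low tissues for 146 of the 187 members. Canals were likewise above liver for 79.8% of the 5827. With TMM factors they were above liver for 105 of the 187. The share of the 5827 was not computed with these factors, so the 105 has no background beside it. Among the 5827 assembled genes with enough reads, 332 were 4-fold higher in both receptor cells and skin than in canals, and 748 were 4-fold higher in both than in liver. The 187 members were 56.3% of the first list and 25% of the second. Over the same 5827, a 4-fold higher level was found for 9.73% in receptor cells over canals, 24.4% in receptor cells over liver, 11.1% in skin over canals and 20.9% in skin over liver. Over the 36326 assembled genes with 10 or more reads in some library, these shares were 13.6%, 22.1%, 10.7% and 13.7%, in the same order. At the threshold, c88214_g1 (3991 bases) and c84746_g3 (2965 bases) lay just inside with margins of 4.01 and 4.02. Assembled genes c63064_g1 and c86580_g1 lay just outside with margins of 3.98 and 3.96. The threshold cut through a continuous range, with 91 assembled genes at margins between 3 and 4 and 44 between 4 and 5.

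The clearest margin belonged to c78200_g1, a single transcript of 3673 bases. Receptor cells held 7196 reads of it (587.9 CPM) and skin 838 (71.5 CPM), and canals and liver held 0. With 0 reads set to 3, its receptor-cell level was 2411-fold that of canals and 2170-fold that of liver. The exact 95% intervals for counting error, taken from 0 reads, start at 1960 and 1764. For skin the ratios were 293.3 over canals and 263.9 over liver, with intervals that start at 238 and 214.2. Assembled gene c94228_g1, singled out after its values were seen, was the other member with 0 reads in both low tissues, at 298 reads in receptor cells and 541 in skin. For c87533_g1 (1763 bases) there were 3704 reads in receptor cells and 379 in skin, 1 in canals and 0 in liver. Its ratio of receptor cells to canals was 3723, with an exact 95% interval for counting error of 667.8 to 147093, because it rests on 1 canal read. Over liver, with 0 reads set to 3, its receptor-cell ratio was 1117, and the exact interval starts at 907.8. On the skin side, c63630_g1 (1896 bases) was read 846 times in receptor cells and 2775 times in skin, against 2 in canals and 7 in liver, and its ratio of skin to canals was 1457 (402.9 to 12036). In these members the canal and liver values were at or near the counting limit of 3 reads, which equals 0.244 CPM in canals and 0.271 CPM in liver.

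Receptor cells and skin did not hold the members at equal levels. This ratio was not part of the rule. The level in receptor cells was higher than in skin for 74 members and lower for 113 (60.4%), whereas it was lower for 43.5% of all 5827 assembled genes with the same read minimum. The median log2 ratio of receptor cells over skin, on CPM + 0.5, was -0.43 among members and 0.14 among the 5827. The scaling of the libraries moved both medians, to -0.84 and -0.26 for the same 187 members and 5827 assembled genes with edgeR's TMM factors. Scaling shifts every such ratio by nearly the same amount. The gap between the medians, -0.57 in either case, was therefore bound to stay and is no check. Within members, 103 stayed within 2-fold (55.1%, against 72.1% of the 5827), and 154 within 4-fold (82.4%, against 92.5%). Ratio intervals that cover counting error only included 1 for 18 members. Across the 187 members, log2 levels in receptor cells and skin had Pearson's r = 0.48 and Spearman's rho = 0.48, against 0.64 and 0.61 across the 5827. These points share the same pair of libraries and are not independent replicates.

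**Figure D2:**
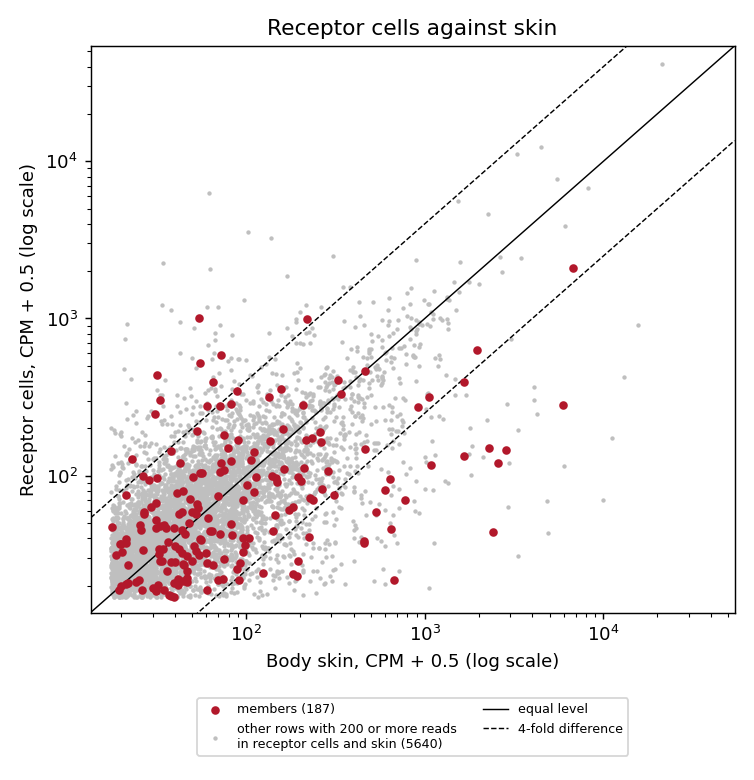
Receptor-cell level (vertical) against skin level (horizontal), both CPM + 0.5 on log scales, for the 187 members in red and the other 5640 assembled genes with 200 or more reads in both libraries in grey. Dashed lines mark 4-fold differences, with 10 members above the upper line and 23 below the lower line.

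Receptor cells stood at least 4-fold above skin for 10 members (5.35%), where 3.23% of the 5827 and 13.0% of the 36326 passed the same fold. They had 1554 to 12330 reads in receptor cells (median 5072) and 264 to 2575 in skin (median 637). Together they took 22.3% of the members' reads in receptor cells and 1.28% of those in skin, a direction that follows from their choice by this ratio. For c90328_g1, receptor cells held 12330 reads (1007 CPM) and skin 631 (53.9 CPM), with 62 in canals and 15 in liver. Its receptor-cell level was 18.7-fold that of skin (17.3 to 20.3) and 743.5-fold that of liver (450.6 to 1329). Assembled gene c113249_g1, a short single transcript of 705 bases, was read 5328 times in receptor cells and 366 times in skin, with 67 in canals and 24 in liver. Receptor cells exceeded skin 13.9-fold (12.5 to 15.5). In both, skin stood between receptor cells and the low tissues. The rule and the choice by this ratio fix that order, so it is a description only.

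Receptor cells stood at least 4-fold below skin for 23 members (12.3%), where 4.29% of the 5827 and 7.34% of the 36326 passed. They had 259 to 4841 reads in receptor cells (median 710) and 1065 to 70003 in skin (median 7440). They took 9.41% of the members' reads in receptor cells and 53.0% of those in skin. The direction of this difference follows from their choice by the ratio, and only its size is a description. With TMM factors the same 187 members gave 8 at least 4-fold above skin and 37 at least 4-fold below (4.28% and 19.8%, against 1.96% and 6.73% of the 5827). For c166917_g1 (585 bases), receptor cells held 530 reads (43.3 CPM) and skin 28232 (2410 CPM), against 112 in canals and 4 in liver. Skin was 55.6-fold above receptor cells (51.1 to 60.8), and receptor cells were 4.76-fold above canals (3.87 to 5.89). The lower end of that last interval lies under 4. Assembled gene c94687_g1, one of the long members at 11348 bases, was read 261 times in receptor cells and 7863 times in skin, against 41 in canals and 36 in liver, and was 31.5-fold higher in skin than in receptor cells (27.8 to 35.7). In these members receptor cells were near the 4-fold limit on library totals, with margins of 4.56 and 5.69. Skin was far above it, which follows from their choice by the ratio of skin over receptor cells.

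A few members held much of the set's reads. In skin, 8 members took more than 50% of the members' reads, and in receptor cells it took 21. The top 10 by reads held 34.3% of the members' reads in receptor cells and 58.2% in skin, and 3 assembled genes were in both lists. These were c84708_g4, c93760_g1 and c92434_g1, the last named after its values were seen. Assembled gene c84708_g4 led by reads in both tissues, at 25578 reads in receptor cells (2090 CPM) and 78912 in skin (6735 CPM), against 814 in canals (66.2 CPM) and 549 in liver (49.6 CPM). Its level in receptor cells was 31.6-fold that of canals (29.5 to 33.9), and its level in skin 101.8-fold (95 to 109.2). Assembled gene c91048_g6 came second in skin, at 3447 reads in receptor cells (281.6 CPM) and 70003 in skin (5975 CPM), against 527 in canals (42.8 CPM) and 7 in liver (0.632 CPM). Its ratio of skin to liver was 9449 (4586 to 23504), and skin was 21.2-fold above receptor cells (20.5 to 22.0). Without the 2 members with most reads in receptor cells (c84708_g4 and c90328_g1), the others took 1.88% of all receptor-cell reads. Without the 2 with most reads in skin (c84708_g4 and c91048_g6), the others took 3.75% of all skin reads.

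Per length the order of the members changed. In the deposited TPM values, which account for length, c84708_g4 was the highest member in receptor cells at 1549 TPM and had 3755 TPM in skin. In skin it was exceeded by c166917_g1, the 585-base transcript, at 135.0 TPM in receptor cells and 7487 TPM in skin. A level of 100 TPM or more was found for 33 members in receptor cells and 45 in skin. It was found for 0 in canals and 0 in liver, where the rule limits their level. The same shares of the 5827 were not computed. Members made up 33 of the 1000 assembled genes with most reads in receptor cells and 47 of the 1000 in skin, where 834 and 904 of the 1000 belonged to the 5827. They were 0 of the 1000 in canals and in liver, where the rule limits their level.

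Canals and liver were compared too, a ratio that the rule did not use beyond an upper limit on both. Canals were above liver for 146 members and below it for 39, and 2 had 0 reads in both. Among the 5827, canals were above liver for 79.8%. The median log2 ratio of canals over liver was 0.82 among members and 0.88 among the 5827. With TMM factors the same 187 members gave 105 above liver and a median of 0.22, against a median of 0.16 for the 5827. The share of the 5827 above liver was not computed with these factors. Canals were at least 4-fold above liver for 42 members (22.5%), where 13.9% of the 5827 and 13.5% of the 36326 passed, and canals were at least 4-fold below liver for 6 (3.21%), where 3.52% and 7.24% passed. Liver held under 10 reads for 29 of the 42. With TMM factors the rule kept 126 members, of which 24 were 4-fold higher in canals (19.0%, against 7.33% of the 5827). In the other direction, 2 were 4-fold lower (1.59%, against 6.14%). With a pseudocount of 2 in place of 0.5 the rule kept 161 members, of which 13 were 4-fold higher in canals (8.07%, against 11.9%). None of the 161 was 4-fold lower (against 3.12%). The share 4-fold higher in canals was therefore above that of the 5827 or below it depending on the pseudocount.

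**Figure D3:**
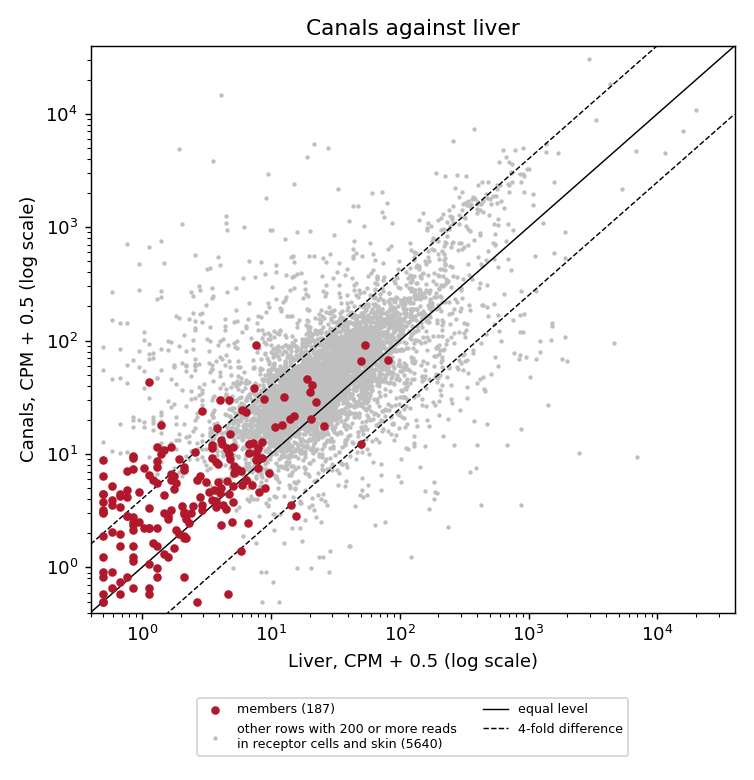
Canal level (vertical) against liver level (horizontal), both CPM + 0.5 on log scales, for the 187 members in red and the other 5640 assembled genes with 200 or more reads in receptor cells and skin in grey. Members lie at the low end, with 42 above the upper dashed 4-fold line and 6 below the lower one; those at 0 reads line up at 0.5.

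With 0 reads taken as 3, the ratio intervals of canals and liver that ended farthest from 1 were those of c91048_g6 and c93760_g1 in one direction and of c83188_g2 and c75638_g1 in the other. When taken from 0 reads instead, the intervals of some members with 0 reads in liver or canals start higher than those of c93760_g1 or c75638_g1. Assembled gene c91048_g6 was 67.8-fold higher in canals than in liver (32.6 to 169.3), on the 527 and 7 reads given above. For c93760_g1 (3520 bases), receptor cells held 7733 reads and skin 22878, against 215 in canals and 10 in liver, and was 19.4-fold higher in canals than in liver (10.3 to 40.9). In the other direction, for c83188_g2 (1481 bases), receptor cells held 288 reads and skin 1456, against 1 in canals and 46 in liver. Its ratio of skin to canals was 1529 (274 to 60427) and that of liver to canals 51.1 (8.73 to 2062), both resting on 1 canal read. For c75638_g1 (1158 bases), receptor cells held 1220 reads and skin 1631, against 29 in canals and 167 in liver, 6.4-fold higher in liver than in canals (4.29 to 9.85). All 4 of them were low in canals and liver relative to receptor cells and skin, but not equally low in both. Both points follow from how they were chosen.

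The median length of members was 2401 bases (343 to 14865), against 2624 bases (244 to 17845) for the 5827. Under 1000 bases were 17 members (9.09%, against 7.28%), and 5000 bases or more were also 17 (9.09%, against 12.7%). Several transcripts were assembled for 86 members (46.0%, against 49.8%) and a single transcript for 101.

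For the 86 members with 2 or more transcripts, the deposited length is a mean weighted by how much each transcript was used, and it was nearly the same in receptor cells and skin for most. It agreed within 1.1-fold for 73 of the 86 (84.9%, against 84.1% of the 2904 assembled genes with 2 or more transcripts among the 5827). At least 1.5-fold longer in receptor cells were 2 members (2.33%), where 0.895% of the 2904 passed, and 2 (2.33%) were at least 1.5-fold longer in skin, where 0.964% passed. Assembled gene c94806_g1, with 4 transcripts, had a weighted length of 2076 bases in receptor cells, 872.2 in skin, 859 in canals and 935.4 in liver, so receptor cells stood apart from the other 3 tissues. It had 1470 reads in receptor cells and 843 in skin, but 73.8 TPM in receptor cells and 123.8 TPM in skin, so the direction of its difference depends on whether length is counted. Assembled gene c90328_g1, with 2 transcripts, measured 5828 bases in receptor cells, 3445 in skin, 4184 in canals and 4603 in liver. It had 205 TPM in receptor cells and 18.55 TPM in skin. Its log2 ratio of receptor cells over skin was 3.43 on TPM + 0.5, against 4.21 on CPM + 0.5. Assembled gene c90562_g5, with 4 transcripts, measured 1308 bases in receptor cells, 3774 in skin, 2441 in canals and 1117 in liver. It had 3364 reads in receptor cells and 10666 in skin, and 288.1 TPM in receptor cells and 284.4 TPM in skin, so a 3.31-fold difference in reads (3.19 to 3.44, higher in skin) was near equality per length. Assembled gene c89610_g6, with 3 transcripts, measured 941.1 bases in receptor cells and 1734 in skin, 1770 in canals and 1766 in liver. With 4815 reads in receptor cells and 761 in skin, against 42 in canals and 33 in liver, its receptor-cell level was 6.06-fold that of skin by reads (5.61 to 6.55), and per length it had 621.8 TPM in receptor cells and 47.8 TPM in skin.

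**Figure D4:**
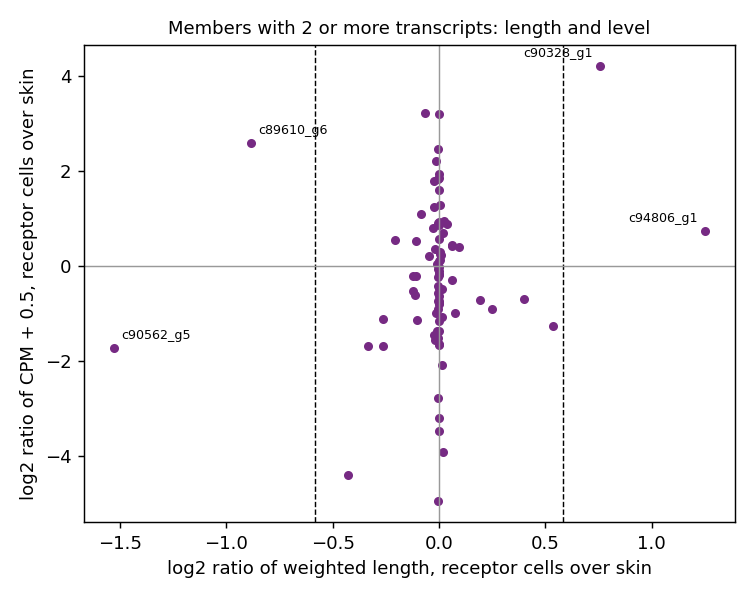
For the 86 members with 2 or more transcripts, the log2 ratio of CPM + 0.5 (vertical) against the log2 ratio of transcript-weighted length (horizontal), both receptor cells over skin. Most points lie at a length ratio near 0, and 2 labelled members lie beyond each dashed 1.5-fold line.

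Identifiers that share the part before "_g" come from 1 assembly cluster, which can hold fragments, alleles or close copies of a gene. The 187 members lay in 181 clusters, of which 6 held a pair of members, so the number of genes behind them may be smaller than 187. In 5 of the 6 pairs the log2 ratios of receptor cells over skin differed by under 0.5, and the median difference was 0.14. Assembled genes c93760_g1 and c93760_g2 were nearly parallel. The second had 3853 reads in receptor cells and 12388 in skin, against 107 in canals and 4 in liver, and its log2 ratio of receptor cells over skin was -1.75, against -1.63 for c93760_g1. The pair c84708_g4 and c84708_g2 differed most. For c84708_g2 (749.5 bases), receptor cells held 848 reads and skin 1117, against 0 in canals and 24 in liver, a log2 ratio of -0.46 against -1.69 for c84708_g4. Reads that fit several sequences of a cluster are divided among them by estimation, so the split within a pair is less certain than its sum.

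**Figure D5:**
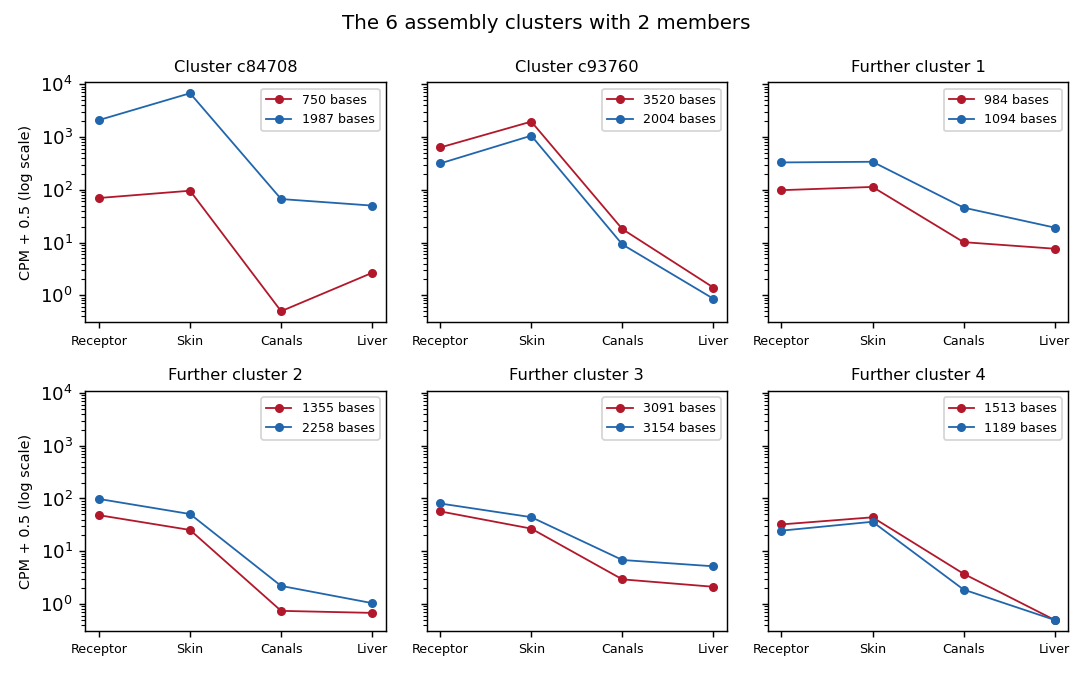
Levels (CPM + 0.5 on a log scale) in the 4 libraries of the pair of members in each of the 6 assembly clusters that held 2, with the members told apart by their length in bases. In 5 clusters the lines keep nearly the same slope between receptor cells and skin, and in cluster c84708 the longer member is relatively higher in skin.

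Most other sequences of these clusters were no members. The 181 clusters held 137 further assembled genes, of which 100 had 10 or more reads in some library and 15 met the read minimum of 200 in receptor cells and skin. These 15 missed the 4-fold condition with margins of 0.377 to 2.71, and their highest level was in skin for 8, in receptor cells for 4, in canals for 2 and in liver for 1. Among the 100, the highest level was in receptor cells for 38, in skin for 29, in canals for 22 and in liver for 11. Of the 100, 9 had a margin of 4 or more without the reads to qualify. The minimum of 200 reads in receptor cells and skin favours these tissues in the split of the 15. The same splits over all assembled genes that meet these read minimums were not computed. Whether the other sequences of these clusters lean to any tissue was therefore not tested. 

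Beside the corresponding sets of 2 other tissue pairs, chosen by the same rule, the set was intermediate in number. Receptor cells and canals shared 322 assembled genes (5.32% of the 6054 with enough reads in both), receptor cells and skin 187 (3.21% of 5827), and skin and liver 57 (1.58% of 3619). These sets share libraries, and their differences were not tested. They were compared on library totals only, so whether the order in number holds under other scalings was not examined. Of all reads, the receptor-cell and canal set took 5.59% in receptor cells and 12% in canals, and the skin and liver set 1.65% in skin and 1.27% in liver. A difference of 4-fold or more between the tissues that share the set was found for 17.6% of the receptor-cell and skin members, 18.9% of the receptor-cell and canal members and 15.8% of the skin and liver members. Over all assembled genes with enough reads in the pair, the shares were 7.52%, 6.34% and 12.5%, in the same order. On library totals, a lower level in receptor cells was found in the set shared with canals too. In that set the median log2 ratio of receptor cells over canals was -0.46, against -0.43 over skin in the set shared with skin. Receptor cells were at least 4-fold above canals for 6.21% and below for 12.7%, against 5.35% and 12.3% for skin. The same median and directional shares over the 6054 were not computed, so how the set shared with canals stands against its background is not known.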

How the data were processed

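Each of the 4 tissues gave 1 library from the same animal. Per the submitters' processing notes, reads were summarised per assembled gene with RSEM 1.1.17. The sources used here do not give the assembler, aligner or filters. The expected counts that the authors deposited are RSEM estimates without normalization, and were rounded to whole numbers. TPM values (transcripts per 1000000, per the file headers) came length-corrected from RSEM, and the FPKM values that the authors deposited were not used. Levels are counts per 1000000 reads of the library total (CPM), since the rule that defines the members uses totals. Differences are on CPM + 0.5, which understates changes of low values, and ratios of single members are plain CPM ratios with exact 95% Clopper-Pearson intervals on the 2 counts. Intervals and the limit of 3 reads for a count of 0 cover counting error only. PCR copies are not independent molecules, so they can be too narrow. Differences between animals, dissections and preparations are not covered. A share of 4-fold differences is given beside that of the 5827 assembled genes with 200 or more reads in receptor cells and skin, and of the 36326 with 10 or more in some library. Scripts ran in Python 3.11.15 and R 4.3.3 with edgeR 4.0.16 and DESeq2 1.42.0, which served for scaling factors only, and were tested on simulated data.

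The members, lists and alternatives were chosen with earlier results of these data known. Named members are those whose ratio intervals end farthest from 1 in each comparison (2 per direction, with 0 reads taken as 3 when ranking), the 2 with most reads in receptor cells and in skin, the 2 nearest each side of the threshold, the 2 with the largest length ratio in each direction, and the pairs in 2 clusters, taken by receptor-cell reads where clusters tied. That last choice was made after the data were seen, as were c94228_g1 and c92434_g1.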

Additional observations from a re-analysis of the deposited data

How the results depend on the processing

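No paired analysis was possible because every group is a single library, which also prevents leaving a replicate aside. The rule was applied anew under 12 alternatives, 1 of them (the 4-fold rule on the interval end, 153 members) chosen after seeing the data. Of the 72 values that 6 results took, 50 stayed within 1.5 times the reported count or within a binomial interval of the median. The other 22 did not. That interval (-0.56 to -0.068) treats the 187 members as independent, which they are not, so it is only a yardstick. DESeq2 size factors, which lower every margin, gave 118 members, 6 of them 4-fold above skin in receptor cells (5.1%, against 1.68% of the 5827). Of the 118, 23 were 4-fold higher in canals than in liver (19.5%, against 7.33%) and 2 were lower (1.7%, against 6.13%). Their median log2 ratio of receptor cells over skin was -0.79, against -0.36 for the 5827. TMM factors gave 24 members 4-fold higher in canals than in liver (19%, against 7.33%) and 2 lower (1.59%, against 6.14%). The median was -0.83, against -0.26 for the 5827. Library totals without the 50 most dominant assembled genes gave 3 members 4-fold lower in canals (1.82%, against 5.34%). A pseudocount of 2 gave 13 higher (8.07%, against 11.9%) and 0 lower (against 3.12%). A minimum of 100 reads, which admits more assembled genes, gave 282 members. Of these, 43 were 4-fold below skin in receptor cells (15.25%, against 4.86% of the 8535 with enough reads). A minimum of 500 reads, which admits fewer (2734), gave 89 members. Of these, 6 were higher in receptor cells than in skin (6.74%, against 2.82% of the 2734) and 14 lower (15.7%, against 4.28%). In canals, 25 were higher than in liver (28.1%, against 14.6%). An 8-fold rule, which keeps fewer by definition, gave 85 members. Receptor cells were higher than skin for 5 (5.88%, against 3.23% of the 5827) and lower for 8 (9.41%, against 4.29%). In canals, 15 were higher (17.65%, against 13.9%) and 1 lower (1.18%, against 3.52%). For the movements not given such a reason, the cause was not tested. Of the 187 members, 117 (62.6%) met the rule under TMM, DESeq2, totals without dominant assembled genes and TPM alike. Among them were the 36 with margins of 16 or more. The TMM and DESeq2 factors differ too little between libraries to bring a margin of 16 under 4. Those settings therefore could not have removed the 36. The 70 members that failed under some of these scalings had margins of up to 9.87 on library totals. Several named members lie in that range, c166917_g1 and c94687_g1 among them. Which of the named members failed is not listed here. Of 114 log2 ratios of receptor cells over skin for 19 named members, 67 stayed within their own interval for counting error. Another 43 left it without changing direction, and 4 changed direction. With TMM or DESeq2 factors all 19 left their interval, such as c90328_g1, from 4.21 to 3.80 with TMM factors. The 4 that changed direction were c88214_g1 with TMM factors (-0.098) and DESeq2 size factors (-0.19), and, with TPM, c90562_g5 (0.019) and c94806_g1 (-0.74).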
